A study of Homo sapiens with 36 samples.

Results

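Cytochrome P450 genes outside the CYP1A1 and CYP1B1 pair were followed in A549 cells, an established alveolar epithelial line from a human lung adenocarcinoma, during exposure to cigarette smoke extract (CSE). The members were all genes named by a single symbol that starts with CYP and a digit, without pseudogenes ending in P plus a digit and without CYP1A1, CYP1B1 and the sterol demethylase gene CYP51A1. They numbered 49 of the 18417 genes with a single symbol, and each was read from 1 transcript cluster, the set of probes that Affymetrix assigns to a transcript. CYP1A2 belonged to them by this rule, as did 4 pseudogenes (CYP2B7P, CYP2D7, CYP2G1P and CYP4Z2P) and the antisense RNA gene CYP1B1-AS1, which were kept in a group of their own. CYP2A6, CYP2A7, CYP2A13, CYP3A7 and CYP21A2 shared clusters with other symbols and were not used here.

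Cytochrome P450 enzymes are haem proteins that insert an oxygen atom into lipophilic substrates, using electrons that POR delivers in the endoplasmic reticulum or ferredoxin in mitochondria. Families 1 to 3 oxidise drugs, smoke constituents and other foreign compounds, family 4 hydroxylates fatty acids and eicosanoids such as leukotrienes, and other families make or break down bile acids, steroid hormones, vitamin D and retinoic acid. In the lung, CYP3A5 is the main CYP3A form and CYP2S1 is a form found mainly outside the liver.

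The 36 arrays (Affymetrix Human Gene 1.0 ST) fell into 12 groups of 3. Cells were kept without CSE as control or with CSE at 1%, 5% or 10%, and RNA was taken at 1, 3 and 5 weeks. All cultures were deprived of serum for a day and then kept in DMEM with little fetal bovine serum, the CSE medium was renewed every day, and cells were passaged weekly. The 3 experiments of a group were described as individual ones, but all came from a single cell line. The time of the 3 control arrays of week 5 is given as 5 weeks in their titles and short codes and as 3 weeks in their descriptions, and the titles were followed. These 3 arrays stood apart: the standard deviation of their log2 values lay between 2.15 and 2.21 against 2.25 to 2.31 on the 33 others, and their scores on the leading principal component (38.8% of the variance) ran from -111 to -74.6 against -61.2 to 47.1. Each comparison with the week-5 control rests on them, so changes against the 6 control arrays of weeks 1 and 3 (the earlier controls) are given where they ended a call, turned a direction or altered the size of a 5-week change of a gene named. All 6 epithelial markers were above the olfactory receptor yardstick described further on, with group means of their average from 10.8 to 11.7 on the log2 scale. Of 6 measured alveolar type II markers, ABCA3, SFTPD and NAPSA lay above it and the surfactant genes SFTPB and SFTPC and LAMP3 lay below it. Above it lay also 3 of 4 fibroblast markers (COL1A1, COL1A2 and PDGFRB), 1 of 4 of liver (APOA1), 1 of 4 of leukocytes (CD68) and 0 of 3 endothelial markers.

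Many members gave weak signals. A member was called dim where its mean over the 36 arrays lay below 6.20 on the log2 scale, the 95th percentile of the means of 359 olfactory receptor genes, a family silent in most epithelial cells. By this yardstick 27 of the 49 members were dim and 22 were not. Dim members were 7 of 11 in the xenobiotic families 1 to 3, among them CYP3A4, CYP2B6 and CYP2C8, and 7 of 12 in family 4. They were 4 of 6 in the bile acid and sterol group, 3 of 5 in the steroid hormone group, 1 of 3 in the retinoic acid group and 0 of 3 in the vitamin D group. Dim were also 1 of 4 little-characterised members, CYP27C1, and 4 of 5 in the group of pseudogenes and antisense RNA, CYP1B1-AS1 among them. Probes differ in affinity, so the yardstick marks a weak signal and not the absence of a transcript.

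A member was counted as risen or fallen where limma's adjusted p, taken over all 33297 transcript clusters, was under 0.05. At 1 week, CSE 1% left 0 members higher and 2 (4.08%) lower, against 3.41% and 1.9% of all transcript clusters (limma, unadjusted p under 0.05 in 1 and 7 members). CSE 5% gave 2 higher (4.08% of members) and 0 lower, against 5.99% and 4.84% (limma, unadjusted p under 0.05 in 7 and 4). CSE 10% gave 4 higher and 4 lower, 8.16% of the members in each direction against 8.27% and 8.44%. The share was above that of all clusters for the 2 falls with CSE 1% and below it for the other counts at 1 week.

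At 3 weeks more members had risen than fallen. CSE 1% raised 7 members (14.3%) and lowered 2, against 5.67% and 5.81% of all clusters. CSE 5% raised 10 (20.4%) and lowered 3, against 9.7% and 9.93%. CSE 10% raised 9 (18.4%) and lowered 0, against 14% and 12.5% (limma, unadjusted p under 0.05 in 12 and 3). The genes that rose at all 3 concentrations were CYP3A5, CYP39A1, CYP4F12, CYP4F3, CYP27C1 and CYP1B1-AS1.

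At 5 weeks falls outnumbered rises against the week-5 control, among the members as on the whole array. Against the controls of weeks 1 and 3 this order turned with CSE 1% (6 rises, 2 falls) and CSE 5% (8 and 7) and held with CSE 10% (6 and 8), and after cyclic loess scaling the falls numbered 5, 8 and 6. CSE 1% raised 11 (22.4%) and lowered 18 (36.7%), against 20.3% and 33.5% of all clusters. CSE 5% raised 11 and lowered 22 (44.9%), against 23% and 40.3%, and CSE 10% raised 9 (18.4%) and lowered 21 (42.9%), against 21.9% and 39.6%. The median log2 change of the members was -0.23, -0.23 and -0.25 at the rising concentrations, beside -0.14, -0.17 and -0.17 over all clusters. Of the members that fell, 11, 12 and 11 were dim. Over the 9 comparisons 41 members passed in at least 1, and CYP3A4, CYP2C8, CYP4A11, CYP4Z1, CYP8B1, CYP11A1, CYP26A1 and CYP27A1 passed in none.

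**Figure D1:**
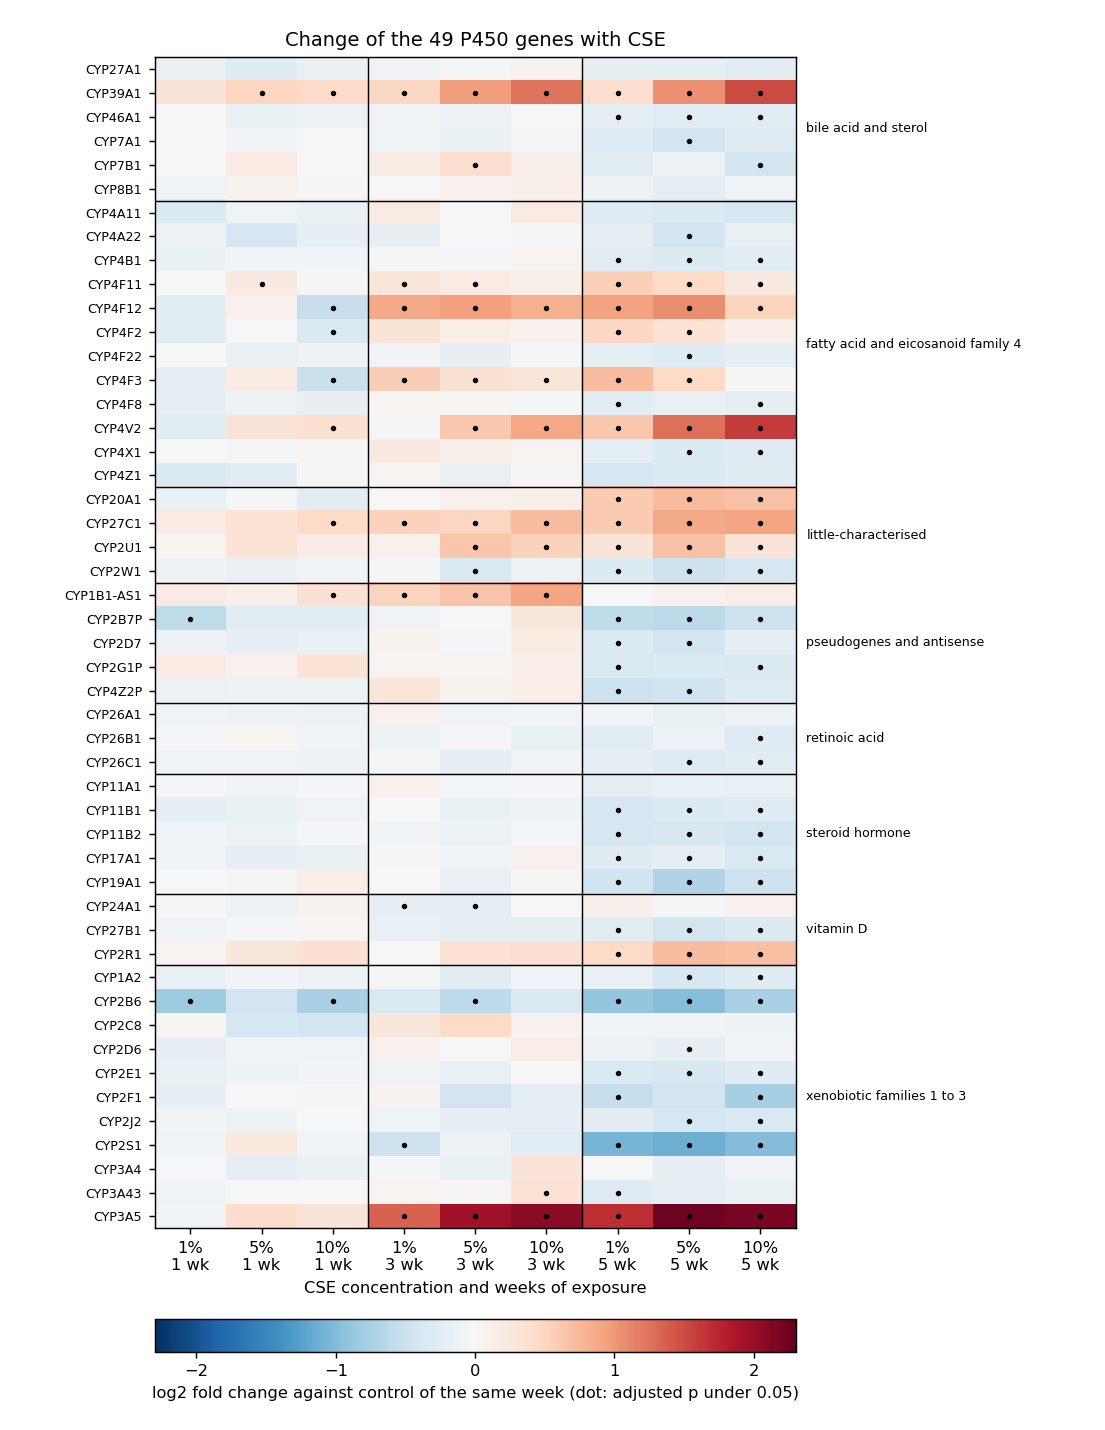
Log2 fold change of the 49 P450 genes (rows, by role) with CSE at 1%, 5% and 10% against the control of the same week (columns; n = 3 arrays a group), red for higher and blue for lower, with a dot where limma's adjusted p was under 0.05. CYP3A5 has the deepest red from 3 weeks on, reaching 2.24 with CSE 5% at 5 weeks, and the pale blue of many rows appears at 5 weeks.

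The study's threshold was a log2 change beyond 1 with log odds (B) above 0. With the 49 members each tested in 9 comparisons there were 15 calls, where 3.33% of all cluster tests passed in either direction. These calls fell to 5 members. They were CYP3A5, CYP4V2, CYP4F12 and CYP39A1, which rose, and CYP2S1, which fell. The stretches of DNA just before the annotated starts of 4 of them are shown because these are the genes whose levels moved most. Each is the 250 bases upstream of a RefSeq start in GRCh38.p14, written 5′ to 3′ on the gene's own strand. They are chr7:99679997-99680246 on the minus strand for CYP3A5, chr19:41192969-41193218 on the plus strand for CYP2S1, chr4:186191317-186191566 on the plus strand for CYP4V2 and chr6:46652819-46653068 on the minus strand for CYP39A1. Capitals mark a match to TGACNNNGC, the core of the antioxidant response element to which NRF2 binds.
CYP3A5: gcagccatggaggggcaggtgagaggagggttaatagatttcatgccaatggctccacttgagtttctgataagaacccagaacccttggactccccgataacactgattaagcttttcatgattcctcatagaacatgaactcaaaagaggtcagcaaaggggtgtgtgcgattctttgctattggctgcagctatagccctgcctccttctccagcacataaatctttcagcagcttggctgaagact
CYP2S1: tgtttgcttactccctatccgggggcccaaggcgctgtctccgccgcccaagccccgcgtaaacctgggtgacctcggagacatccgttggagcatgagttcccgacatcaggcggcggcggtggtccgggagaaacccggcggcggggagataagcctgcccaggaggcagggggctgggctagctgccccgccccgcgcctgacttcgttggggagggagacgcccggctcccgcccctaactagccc
CYP4V2: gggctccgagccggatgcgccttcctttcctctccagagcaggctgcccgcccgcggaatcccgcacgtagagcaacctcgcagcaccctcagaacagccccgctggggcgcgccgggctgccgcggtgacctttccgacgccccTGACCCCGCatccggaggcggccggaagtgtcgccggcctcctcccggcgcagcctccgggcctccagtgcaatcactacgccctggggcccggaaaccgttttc
CYP39A1: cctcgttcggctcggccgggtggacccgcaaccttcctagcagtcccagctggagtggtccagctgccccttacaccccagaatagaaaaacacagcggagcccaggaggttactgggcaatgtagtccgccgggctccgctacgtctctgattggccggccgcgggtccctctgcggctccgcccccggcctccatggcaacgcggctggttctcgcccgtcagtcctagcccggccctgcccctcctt

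CYP4V2 alone among these 4 held a match to TGACNNNGC, on the plus strand and beginning at position -105 from the start. The same window, which runs on to 50 bases after the start, held a match to GCGTG, the core of the site bound by the aryl hydrocarbon receptor, beginning 23 bases after the start and so outside the printed stretch. Neither core was found on either strand in the windows of CYP3A5, CYP2S1 and CYP39A1. Windows were at hand for 32 of the 49 members, of which 11 held GCGTG and 5 held TGACNNNGC. Among all 35116 windows of this length 36.5% held GCGTG and 13.3% held TGACNNNGC, both strands searched. A match of letters is no evidence of binding.

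CYP3A5, which oxidises drugs and steroids, was the member that rose furthest. Its control arrays read 9.34, 9.36 and 8.89 in week 1, 8.14, 7.52 and 8.34 in week 3, and 6.85, 7.67 and 7.66 in week 5 on the log2 scale. With CSE 5% the arrays read 9.54, 9.66 and 9.61 in week 1, 10.00, 9.78 and 10.03 in week 3, and 9.70, 9.58 and 9.62 in week 5. The control level thus dropped from week to week while that of the exposed cells stayed high. From 3 weeks on no exposed array overlapped a control array of its own week. With CSE 1% the arrays read 9.56, 9.34 and 9.15 at 3 weeks and 8.81, 9.08 and 9.38 at 5 weeks. With CSE 10% they read 9.90, 10.08 and 10.26 at 3 weeks and 9.51, 9.51 and 9.75 at 5 weeks.

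At 1 week the log2 change of CYP3A5 was -0.07 with CSE 1%, 0.40 with CSE 5% and 0.29 with CSE 10%, and none passed (standard error 0.19; adjusted p = 0.89, 0.19 and 0.34). At 3 weeks CYP3A5 rose by 1.35, 1.94 and 2.08, which is 2.55-, 3.83- and 4.22-fold (adjusted p = 7.2e-06, 6.9e-09 and 1.5e-09). At 5 weeks it rose by 1.69, 2.24 and 2.19, or 3.23-, 4.72- and 4.57-fold (adjusted p = 9.9e-08, 2.0e-10 and 2.7e-10). The control itself fell by 1.20 from 1 to 3 weeks and by 1.80 from 1 to 5 weeks (adjusted p = 5.0e-05 and 3.5e-08). Against the 6 control arrays of weeks 1 and 3, the 5-week rise was 0.49, 1.04 and 0.99 (standard error 0.16, adjusted p = 0.041, 1.6e-05 and 2.8e-05). It was smaller at every concentration than against the 5-week control. That reference averages the controls of weeks 1 and 3, which differed by 1.20, a gap that the standard error leaves out. At 5 weeks CYP3A5 overlapped its week-1 controls with CSE 1% and lay above them with CSE 5% and 10%. Its closest relatives moved less: CYP3A4, dim throughout, passed nowhere, and CYP3A43, dim as well, rose with CSE 10% at 3 weeks and fell with CSE 1% at 5 weeks, a fall that did not pass against the earlier controls (log2 change 0.05).

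CYP4V2, a fatty acid hydroxylase whose loss causes a crystalline dystrophy of the retina, rose with concentration. Its control arrays read 8.08, 8.13 and 7.78 in week 1, 8.01, 8.00 and 7.82 in week 3, and 6.80, 7.44 and 7.49 in week 5. At 5 weeks they read 7.71, 7.99 and 7.93 with CSE 1%, 8.63, 8.39 and 8.52 with CSE 5%, and 8.92, 8.86 and 8.77 with CSE 10%. At 5 weeks the groups did not overlap, and every array with CSE 10% was above every array with CSE 5%. CYP4V2 rose by 0.63, 1.27 and 1.60 at 5 weeks, the last 3.04-fold (standard error 0.13; adjusted p = 0.00023, 4.3e-09 and 4.2e-11). At 3 weeks it rose by 0.62 with CSE 5% and 0.88 with CSE 10%, and its log2 change with CSE 1% was -0.02 (adjusted p = 0.00054, 3.9e-06 and 0.96). The difference between CSE 10% and CSE 1% was 0.62 at 1 week, then 0.91 and 0.98, and passed each time (adjusted p = 0.00075, 8.8e-06 and 2.5e-06). These differences leave the control arrays out. Between CSE 10% and CSE 5% at 5 weeks the difference of 0.34 did not pass (95% interval 0.08 to 0.60; adjusted p = 0.23). With the controls of weeks 1 and 3 as reference, CYP4V2 changed by -0.10 with CSE 1%, which did not pass, and rose by 0.54 and 0.88 with CSE 5% and 10% (adjusted p = 0.64, 0.00037 and 3.1e-07).

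CYP39A1, an oxysterol hydroxylase of bile acid synthesis, read near the olfactory receptor median of 4.96 in the controls of every week. The 9 control arrays read 4.84, 4.86 and 4.62, then 4.74, 4.76 and 4.95, then 4.98, 4.79 and 4.64 at 1, 3 and 5 weeks, and no difference between their weeks passed (log2 differences from -0.01 to 0.04, adjusted p from 0.86 to 0.94). With CSE 10% the arrays read 5.25, 5.20 and 5.19 in week 1, 6.27, 6.03 and 5.84 in week 3, and 6.49, 6.27 and 6.15 in week 5. With CSE 5% at 5 weeks they read 5.84, 5.84 and 5.87, and with CSE 1% 5.03, 5.05 and 5.50. CYP39A1 is dim by its mean, and 3 of the arrays with CSE 10% lay above the yardstick of 6.20. With controls this weak its reference level is only an upper bound, so no fold is given for it and a steady low reading in the controls is no measure of a steady transcript.

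CYP39A1 rose by 0.39, 1.04 and 1.50 on the log2 scale at 5 weeks with the rising concentrations (standard error 0.12; adjusted p = 0.011, 1.0e-07 and 1.3e-10). Unlike those of CYP3A5, these changes were nearly the same against the controls of weeks 1 and 3, at 0.40, 1.05 and 1.51. The 5-week differences between concentrations passed in all 3 pairs: 0.65 for 5% against 1%, 0.46 for 10% against 5% and 1.11 for 10% against 1% (adjusted p = 0.0014, 0.047 and 2.5e-07). At 3 weeks the rises were 0.47, 0.96 and 1.23 and at 1 week 0.50 and 0.44 with CSE 5% and 10%, all of which passed. The rise of 0.29 with CSE 1% at 1 week did not (adjusted p = 0.21), although its 3 arrays lay above the 3 control arrays.

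**Figure D2:**
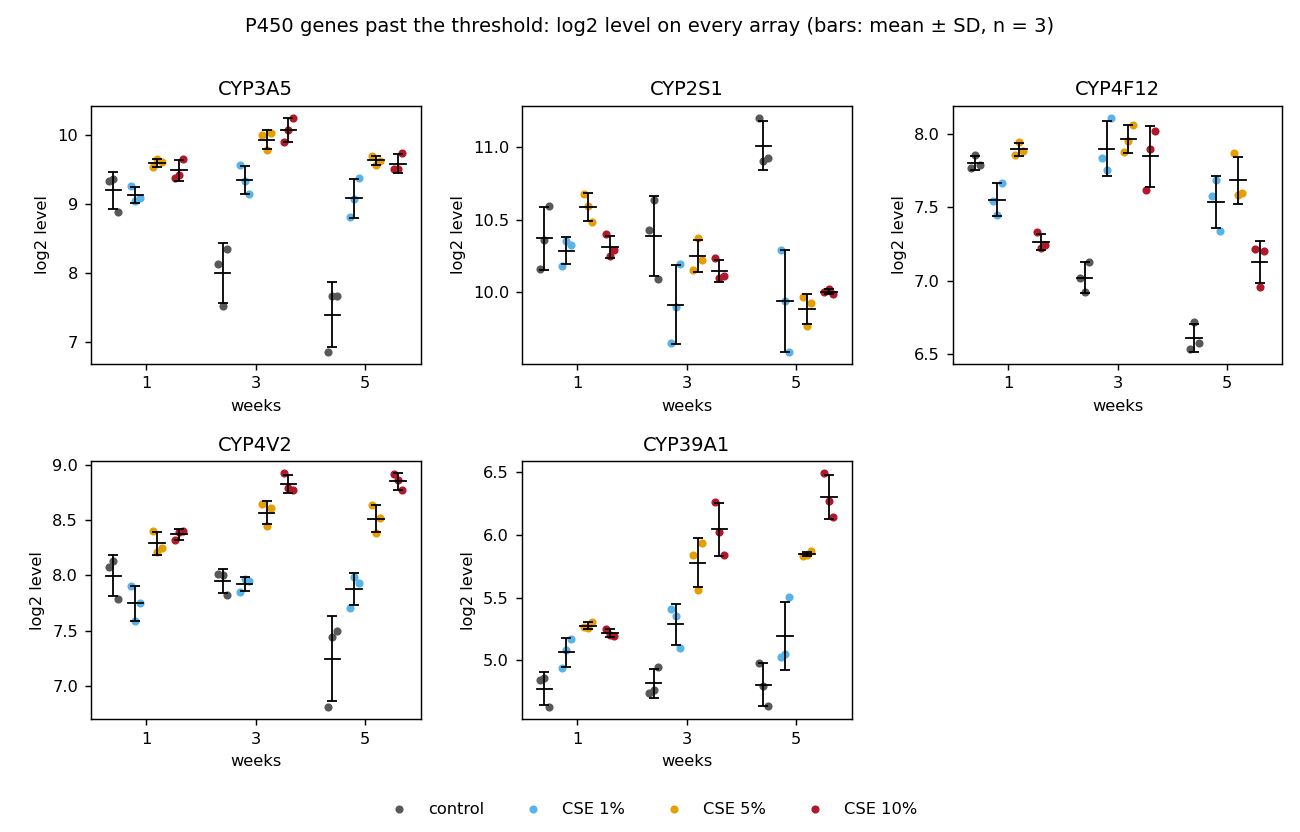
Log2 level on every array (points) of the 5 genes past the study's threshold, at 1, 3 and 5 weeks, for control and CSE at 1%, 5% and 10%, with mean and SD (bars, n = 3). The axes do not start at 0. The controls of CYP3A5 and CYP4F12 drop from week to week, those of CYP39A1 stay between 4.62 and 4.98, and the control of CYP2S1 is highest at 5 weeks.

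CYP2S1, which acts on small foreign compounds and on eicosanoids, was the member that fell past the study's threshold. Its control arrays read 10.16, 10.36 and 10.59 in week 1, 10.43, 10.64 and 10.09 in week 3, and 11.20, 10.90 and 10.93 in week 5. The 5-week arrays read 10.29, 9.94 and 9.59 with CSE 1%, 9.97, 9.77 and 9.93 with CSE 5%, and 10.00, 10.02 and 9.99 with CSE 10%. All 9 exposed arrays at 5 weeks lay under all 3 controls of that week. CYP2S1 fell by 1.07, 1.12 and 1.01 at 5 weeks (standard error 0.14; adjusted p = 1.9e-06, 3.4e-07 and 1.6e-06), and no difference between concentrations passed (log2 differences of -0.05, 0.12 and 0.06, each 95% interval within -0.35 to 0.41). The control had itself risen by 0.62 from 3 to 5 weeks (adjusted p = 0.0008). With the controls of weeks 1 and 3 as reference the fall was 0.44, 0.49 and 0.37 and passed at each concentration (adjusted p = 0.016, 0.0039 and 0.023). At 1 week no change passed, and at 3 weeks CYP2S1 fell by 0.47 with CSE 1%, in groups that overlapped.

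The CYP4F genes, neighbours on chromosome 19 that hydroxylate leukotrienes and other fatty acids, numbered 6 among the members, and 4 of them rose with CSE 1% and with CSE 5% at 5 weeks against the control of that week. Against the controls of weeks 1 and 3, CYP4F3 and CYP4F11 of these 4 passed as rises with CSE 1%, CYP4F12 with CSE 5% and 0 with CSE 10%, where all 4 fell. CYP4F12 read 7.76, 7.85 and 7.79 in the controls of week 1, 7.02, 6.92 and 7.13 in those of week 3 and 6.54, 6.72 and 6.58 in those of week 5. At 5 weeks it read 7.58, 7.69 and 7.34 with CSE 1%, 7.87, 7.59 and 7.60 with CSE 5%, and 7.21, 6.96 and 7.20 with CSE 10%. The control groups of the 3 weeks did not overlap one another and dropped by 1.19 from 1 to 5 weeks (adjusted p = 2.4e-09). CYP4F12 rose by 0.88, 0.94 and 0.82 at 3 weeks and by 0.92, 1.07 and 0.52 at 5 weeks (standard error 0.11; adjusted p from 4.8e-09 to 0.00019), whereas at 1 week it fell by 0.54 with CSE 10% (adjusted p = 0.0005). With the controls of weeks 1 and 3 as reference the 5-week change was 0.12 with CSE 1%, which did not pass. It was 0.27 with CSE 5% and -0.29 with CSE 10%, where the direction turned (adjusted p = 0.44, 0.031 and 0.02 with CSE 1%, 5% and 10%). This reference lies between control groups that did not overlap. The 5-week arrays with CSE 5% lay above every week-3 control, and those of 7.59 and 7.60 lay under every week-1 control. With CSE 10% the arrays lay under the week-1 controls and overlapped those of week 3.

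CYP4F3, which inactivates leukotriene B4 in neutrophils, read 10.41, 10.39 and 10.16 in the 1-week controls and 9.83, 9.75 and 9.87 with CSE 10%. It read 10.50, 10.55 and 10.50 with CSE 5%, so the level was highest at the middle concentration and lowest at the highest, without overlap. CYP4F3 fell by 0.51 with CSE 10% at 1 week, and its level with CSE 10% was under that with CSE 5% by a log2 difference of -0.70 (standard error 0.083; adjusted p = 3.6e-05 and 1.5e-06). At 5 weeks it rose by 0.70 with CSE 1% and 0.46 with CSE 5% (adjusted p = 2.2e-07 and 3.3e-05), and it did not pass with CSE 10%. With the controls of weeks 1 and 3 as reference it rose by 0.21 with CSE 1%, had a log2 change of -0.03 with CSE 5% and fell by 0.46 with CSE 10% (adjusted p = 0.044, 0.79 and 1.1e-05). The level with CSE 10% was again under that with CSE 1%, by -0.67, and that with CSE 5%, by -0.43 (adjusted p = 1.2e-06 and 0.0021). CYP4F12 was also lowest with CSE 10% among the concentrations at 5 weeks, with -0.41 and -0.56 for CSE 10% against CSE 1% and CSE 5% (adjusted p = 0.013 and 0.0022), as was CYP4F11, with -0.34 and -0.26 (adjusted p = 0.00052 and 0.024). CYP4F11 rose by 0.54, 0.46 and 0.20 at 5 weeks, and CYP4F2 rose by 0.48 and 0.32 with CSE 1% and 5% (adjusted p from 2.4e-07 to 0.011). Against the earlier controls CYP4F11 rose by 0.17 with CSE 1%, did not pass at 0.09 with CSE 5% and fell by 0.16 with CSE 10% (adjusted p = 0.03, 0.22 and 0.024). CYP4F2 there had log2 changes of 0.06 and -0.10, which did not pass, and fell by 0.29 with CSE 10% (adjusted p = 0.74, 0.44 and 0.014). The dim CYP4F8 and CYP4F22 passed only as falls, and after cyclic loess scaling the change of CYP4F8 turned its sign and did not pass, nor did it pass against the earlier controls. CYP4F genes are near-identical over stretches of their transcripts, and how far their probes cross-react was not tested.

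**Figure D3:**
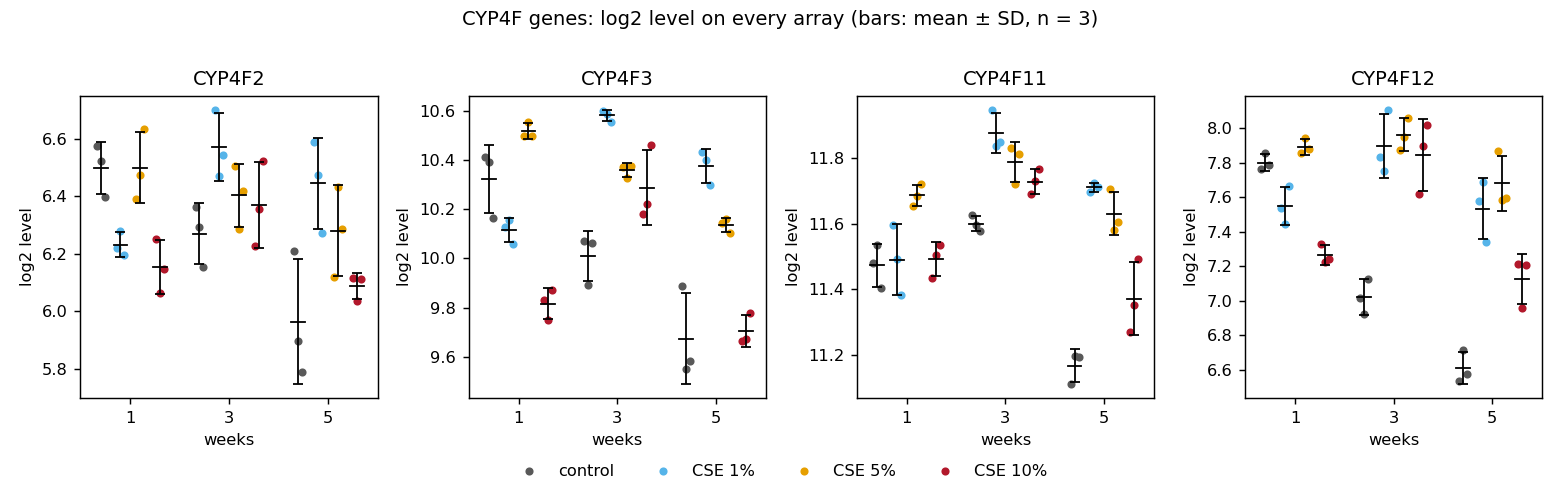
Log2 level on every array (points) of CYP4F2, CYP4F3, CYP4F11 and CYP4F12 at 1, 3 and 5 weeks for control and CSE at 1%, 5% and 10%, with mean and SD (bars, n = 3). The axes do not start at 0 and differ between panels. At 5 weeks the CSE 10% group lies under the CSE 1% group in each panel, and CYP4F3 with CSE 10% (9.66 to 9.78) lies among its controls (9.55 to 9.89).

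Of the 9 xenobiotic members other than CYP3A5 and CYP2S1, 0 rose, 5 fell and 4 did not pass with CSE 5% at 5 weeks (limma, unadjusted p under 0.05 in 0 and 6), where 23% of all clusters rose and 40.3% fell. Only 2 of the 9 fell against the earlier controls, beside 13% of all clusters. CYP2B6, which oxidises many drugs, read 5.60, 5.46 and 5.13 in the 5-week controls and 4.34, 4.41 and 4.48 with CSE 5%. The groups did not overlap, and CYP2B6 fell by 0.88, 0.99 and 0.75 at the 3 concentrations (standard error 0.16; adjusted p = 5.7e-05, 6.2e-06 and 0.00019). It also fell at 1 week, by 0.81 with CSE 1% and 0.74 with CSE 10%, and at 3 weeks by 0.61 with CSE 5% (adjusted p = 0.0011, 0.00086 and 0.0052). With the earlier controls as reference the 5-week fall was 0.61, 0.72 and 0.48 and passed at each concentration. Both it and its near-identical pseudogene CYP2B7P, with which it may share signal, were dim on these arrays. CYP2E1, the ethanol-oxidising form, was dim and fell at 5 weeks by 0.36, 0.37 and 0.28. CYP1A2, a target of the aryl hydrocarbon receptor in liver, fell by 0.38 with CSE 5% and 0.28 with CSE 10% (adjusted p from 0.0023 to 0.021 over both genes). CYP2E1, set against the earlier controls, had log2 changes of -0.13, -0.14 and -0.04, none of which passed (adjusted p = 0.4, 0.26 and 0.75), and CYP1A2 fell by 0.30 with CSE 5% and did not pass at -0.20 with CSE 10% (adjusted p = 0.013 and 0.091).

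The little-characterised members held rises at both 3 and 5 weeks. CYP27C1, a retinoid desaturase of the skin, rose by 0.54, 0.50 and 0.72 at 3 weeks and by 0.60, 0.87 and 0.91 at 5 weeks (standard error 0.13; adjusted p from 1.0e-06 to 0.0047). CYP27C1 was dim by its mean. Its 5-week arrays read 5.40, 5.73 and 5.29 in the controls and 6.38, 6.17 and 6.58 with CSE 10%, without overlap. Its 5-week changes against the earlier controls were 0.23, which did not pass, 0.50 and 0.53 (adjusted p = 0.17, 0.001 and 0.00039). CYP2U1, a hydroxylase of long-chain fatty acids, rose by 0.64 and 0.52 with CSE 5% and 10% at 3 weeks and by 0.29, 0.67 and 0.29 at 5 weeks. Its 5-week rise was as large against the controls of weeks 1 and 3, at 0.38, 0.76 and 0.38 (adjusted p = 0.014, 2.7e-06 and 0.007). CYP20A1, an orphan with no settled substrate, rose at 5 weeks by 0.60, 0.73 and 0.67 (standard error 0.11; adjusted p = 0.00011, 4.9e-06 and 1.5e-05). The controls of CYP20A1 fell by 0.97 from 1 to 5 weeks. Against the controls of weeks 1 and 3 its log2 changes were -0.22, -0.09 and -0.15. The direction thus turned, and none of them passed (adjusted p = 0.15, 0.55 and 0.26). CYP2W1, a form found in tumours, fell at 5 weeks by 0.32, 0.48 and 0.39 (adjusted p from 8.5e-05 to 0.0058). For CYP2W1 the log2 changes against the earlier controls were -0.08, -0.25 and -0.16, and CSE 5% alone passed (adjusted p = 0.57, 0.025 and 0.14).

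Of the 3 vitamin D genes 1 rose, 1 fell and 1 did not pass with CSE 5% at 5 weeks against the control of that week. Against the controls of weeks 1 and 3, 0 rose and 2 fell. CYP2R1, which begins the activation of vitamin D, rose by 0.45, 0.70 and 0.68 at 5 weeks (standard error 0.14; adjusted p = 0.0084, 0.00011 and 0.00015). Against the controls of weeks 1 and 3 its log2 changes were -0.10, 0.15 and 0.13, and none passed (adjusted p = 0.66, 0.39 and 0.43). CYP27B1, which completes the activation, fell by 0.24, 0.42 and 0.34 (standard error 0.087; adjusted p = 0.023, 0.00018 and 0.0015). For CYP27B1 the earlier controls gave log2 changes of -0.08, -0.26 and -0.18, and CSE 5% alone passed (adjusted p = 0.58, 0.012 and 0.072). CYP24A1, which breaks the hormone down, kept within 12.4 to 12.9 on all 36 arrays and fell by 0.18 and 0.20 with CSE 1% and 5% at 3 weeks (standard error 0.059; adjusted p = 0.043 and 0.016). At 5 weeks CYP24A1 had log2 changes of -0.02, -0.19 and -0.05 against the earlier controls, and CSE 5% alone passed (adjusted p = 0.87, 0.0059 and 0.5). VDR, the receptor of the hormone and no member, rose by 0.49, 0.84 and 0.76 at 5 weeks (standard error 0.099; adjusted p = 0.00022, 7.6e-08 and 3.2e-07), and by 0.58, 0.93 and 0.85 against the controls of weeks 1 and 3.

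Of the 5 steroid hormone genes 4 fell with CSE 5% at 5 weeks, beside 40.3% of all clusters, and 1, CYP11A1, did not pass. Against the controls of weeks 1 and 3, 0 of the 5 passed with CSE 5% (limma, unadjusted p under 0.05 in 0), and after cyclic loess scaling the change of CYP17A1 there turned its sign and did not pass. Of the 5, CYP11A1, CYP17A1 and CYP19A1 were dim, CYP19A1 with a mean of 4.67. CYP19A1, the aromatase that makes oestrogens, read 5.02, 5.45 and 5.34 in the 5-week controls and 4.53, 4.57 and 4.65 with CSE 5%, without overlap. It fell by 0.45, 0.69 and 0.47 at 5 weeks (standard error 0.15; adjusted p = 0.016, 0.00041 and 0.0099). In the controls CYP19A1 rose by 0.71 from 3 to 5 weeks (adjusted p = 0.00042). Set beside the earlier controls, CYP19A1 had 5-week log2 changes of 0.26, 0.02 and 0.24 with CSE 1%, 5% and 10%. Its direction thus turned at each concentration, and none of these changes passed (adjusted p = 0.22, 0.93 and 0.19). CYP11B2, the aldosterone synthase, fell by 0.41, 0.37 and 0.43, and CYP11B1 and CYP17A1, of cortisol and androgen synthesis, by 0.23 to 0.38. Of these 3, against the controls of weeks 1 and 3, CYP17A1 alone passed, with CSE 10% (log2 change -0.21, adjusted p = 0.047). The retinoic acid hydroxylases CYP26B1 and CYP26C1 fell by at most 0.30, of which only the fall of CYP26B1 with CSE 10% passed against the controls of weeks 1 and 3 (log2 change -0.33, adjusted p = 0.018), and CYP26A1 did not pass in any comparison. In the bile acid and sterol group CYP39A1 was the riser at 5 weeks against the control of that week. CYP7B1 rose as well with CSE 5% against the controls of weeks 1 and 3 (log2 change 0.28, adjusted p = 0.039). It did not pass there with CSE 1% and 10%. CYP46A1, the cholesterol hydroxylase of neurons, fell by 0.23, 0.25 and 0.26 against the 5-week control (standard error 0.081, adjusted p = 0.017, 0.0086 and 0.0078). The earlier controls gave CYP46A1 log2 changes of -0.05, -0.07 and -0.07, none of which passed (adjusted p = 0.72, 0.52 and 0.46).

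CYP1B1-AS1, transcribed on the strand opposite to CYP1B1, was dim by its mean. It rose at 3 weeks and, with CSE 10%, at 1 week (by 0.34, adjusted p = 0.031). Its 3-week arrays read 5.03, 4.90 and 4.99 in the controls and 5.63, 5.85 and 6.16 with CSE 10%, without overlap. The rises at 3 weeks were 0.52, 0.66 and 0.91 (standard error 0.11; adjusted p = 0.0015, 4.9e-05 and 3.0e-07). At 5 weeks the controls read 5.55, 5.58 and 5.68, above those of 3 weeks by 0.63, and no change passed against them. With the controls of weeks 1 and 3 as reference the 5-week change was 0.49, 0.58 and 0.65 and passed at each concentration (adjusted p = 0.00045, 2.9e-05 and 5.1e-06). CYP1B1 itself, no member, rose by 3.29, 4.13 and 4.19 at 3 weeks.

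Comparisons between concentrations within a week use no control arrays and gave 30 calls among members over 9 pairs, where 6.12% of all cluster tests passed. At 1 week CSE 5% against CSE 1%, CSE 10% against CSE 5% and CSE 10% against CSE 1% gave 2 calls each, against 6.73%, 3.27% and 11.9% of all clusters, and all were in CYP4V2, CYP4F3 and CYP4F12. At 3 weeks the same pairs gave 4, 0 and 8 calls, against 5.51%, 0.967% and 12.3%. The 0 calls for CSE 10% against CSE 5% (limma, unadjusted p under 0.05 in 8 members higher and 1 lower) do not show that these concentrations act alike. At 5 weeks the pairs gave 2, 4 and 6 calls, against 3.54%, 2.22% and 8.67%. At 5 weeks every call was in CYP39A1, CYP4V2 or a CYP4F gene: CYP39A1 and CYP4V2 were higher at the higher concentration, and the CYP4F genes were lower with CSE 10%. For CYP3A5 a difference between concentrations passed at 3 weeks alone, 0.73 between CSE 10% and CSE 1% (adjusted p = 0.01).

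Control arrays differed between weeks, giving 54 calls among members over 3 pairs of weeks, where 37.2% of all cluster tests passed. For the 5-week control arrays, a change of the cells and a difference of the arrays cannot be told apart. From 1 to 3 weeks 0 members rose and 5 fell, against 6.23% and 5.27% of all clusters (limma, unadjusted p under 0.05 in 1 and 9), among them CYP3A5, CYP4F12, CYP4F3 and CYP2B6. From 3 to 5 weeks 18 rose and 10 fell, against 31.7% and 21.8%, and from 1 to 5 weeks 12 rose and 9 fell, against 28.2% and 18.4%. Of the 18 rises from 3 to 5 weeks 12 were in dim members, which made up 27 of the 49. Of the 10 falls 9 were in brighter members, which made up 22 of the 49. Against the controls of weeks 1 and 3, CSE at 5 weeks left 6, 8 and 6 members higher (background 7.86%, 13.1% and 15%) and 2, 7 and 8 lower (background 7.43%, 13% and 16%) at the 3 concentrations. The effect of CSE itself changed between 1 and 5 weeks in 30 calls over the 3 concentrations, where 27.1% of all cluster tests passed, and past the study's threshold in 8, where 3.4% passed. Exposure time and the 5-week control arrays cannot be told apart in the changes of a member that moved in the controls.

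**Figure D4:**
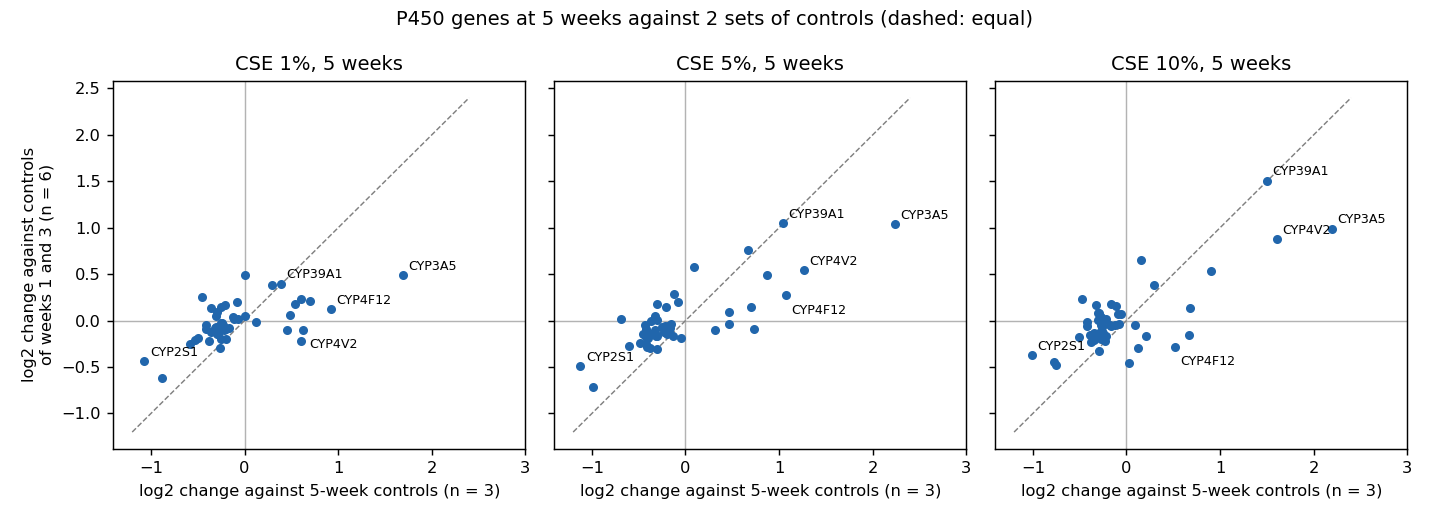
Log2 change of the 49 P450 genes (points) with CSE at 5 weeks against the 3 controls of week 5 (horizontal axis) and against the 6 controls of weeks 1 and 3 (vertical axis), one panel per concentration; on the dashed line both are equal. CYP39A1 lies on the line (1.50 and 1.51 with CSE 10%), CYP3A5 lies below it (2.19 and 0.99), CYP4F12 crosses 0 with CSE 10% (0.52 and -0.29), and most points left of 0 lie nearer to 0 on the vertical axis.

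The genes around the P450 enzymes were read from lists of 9 redox partners, 7 genes of haem synthesis, 16 regulators, and 10 epoxide hydrolases and glucuronosyltransferases. With CSE 5% at 5 weeks, where 23% of all clusters rose and 40.3% fell, 5 redox partners rose, 3 fell and 1 did not pass. Against the controls of weeks 1 and 3, where 13.1% rose and 13% fell, 2 rose and 3 fell. POR, which feeds electrons to the microsomal forms, fell by 0.56, 0.69 and 0.91 at 5 weeks (standard error 0.13; adjusted p = 0.001, 7.7e-05 and 1.9e-06), and against the controls of weeks 1 and 3 by 0.37, 0.50 and 0.72. CYB5R4 and CYB5A rose by 1.44 and 1.01 with CSE 5%, but against those controls CYB5R4 did not pass at 0.35 and CYB5A rose by 0.80 (adjusted p = 0.15 and 9.3e-07). Of the haem synthesis genes 2 rose, 2 fell and 3 did not pass: ALAS1, the first enzyme, fell by 0.65 and FECH, the last, rose by 0.88 (adjusted p = 3.6e-05 and 9.3e-11). With the earlier controls as reference ALAS1 fell by 0.47 and FECH rose by 0.48 (adjusted p = 0.00083 and 6.8e-07), and the counts were again 2, 2 and 3. Of the regulators 7 rose, 4 fell and 5 did not pass, and against the controls of weeks 1 and 3, 4 rose and 2 fell. NR5A2, a nuclear receptor that drives bile acid and steroid P450 genes in liver and gonads, rose by 1.13, 2.55 and 3.59 with CSE 5% at 1, 3 and 5 weeks (standard error 0.13; adjusted p = 1.9e-07, 6.3e-15 and 1.6e-18), the last being 2.38 against the controls of weeks 1 and 3. AHR rose by 0.49 with CSE 5% at 5 weeks (adjusted p = 0.0085), but against the controls of weeks 1 and 3 its log2 change was -0.17 and did not pass (adjusted p = 0.37). Of the conjugating genes 0 rose and 2 fell, UGT2B4 and UGT2B10 (limma, unadjusted p under 0.05 in 0 and 2). With the earlier controls 2 of the 10 rose and 1, UGT2B4, fell. In RNA pooled from whole cultures, fewer cells making a transcript and less of it per cell cannot be told apart.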

How the data were processed

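RNA of A549 cells was hybridised to Affymetrix Human Gene 1.0 ST arrays. The authors ran RMA in the oligo package, which removes background, equalises the distributions of the arrays and gives 1 value per transcript cluster, and deposited the log2 values. A shift of most genes in one direction can thus be hidden in part. The deposited values still held a median change of -0.14, -0.17 and -0.17 over all clusters at 5 weeks with CSE 1%, 5% and 10%. The submitters' processing notes name R 2.11.0 with RMA and limma, and a genome build is not given in the sources. The deposited values ran from 2.29 to 14.5, and no filter or further normalization was applied. The highest correlation between any pair of arrays was 0.996, so none was a copy of another. Of the transcript clusters, 19460 have 1 symbol, 1754 several and 12083 none in the platform annotation, and members were named only from clusters with 1 symbol.

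A model with a mean per group was fitted with limma 3.58.1 in R 4.3.3 over all 36 arrays, with a residual of 24 degrees of freedom and a prior of 3.91. P-values were adjusted over all clusters after Benjamini and Hochberg. B was computed with a prior proportion of changed clusters of 0.01. The fit was tried on simulated normal data with known changes added, in which each cluster had the same spread in all groups. Such data cannot show how the fit acts where groups differ in spread. Standard errors and p-values rest on the spread between arrays within groups, pooled for each cluster over all 12 groups. A group with a wider spread of its own is thus given the pooled one. The number of arrays in a group limits the precision. Changes against one control share its arrays and are not independent.

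The members and the lists were chosen with earlier results of these data known. Values on every array were given for members past the study's threshold in any comparison with control, and for further members of a role group with the smallest p. Promoter windows are those of RefSeq. Replicate numbers were not treated as pairs: the deviations of same-numbered arrays correlated between -0.21 and 0.50 over 27 pairs, 6 of them above 0.1, and only 1 of the 9 comparisons with control had all its 3 pairs above 0.1. Alternatives were cyclic loess, centring on 22 housekeeping genes, the 60% brightest clusters, a trended robust variance, the replicate block, the mean of a gene's clusters, separate fits, the controls of weeks 1 and 3, and leaving out each array.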

Additional observations from a re-analysis of the deposited data

Results flagged for a closer look

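The effect of CSE at 5 weeks differed from that at 1 week past a log2 difference of 1 with B above 0 in 5 members, by limma's test of the difference itself. For CYP3A5 the difference, 5 weeks minus 1 week, was 1.76, 1.84 and 1.90 with CSE 1%, 5% and 10% (standard error 0.27; adjusted p = 4.5e-05, 2.1e-05 and 7.9e-06). For CYP4F12 it was 1.17 with CSE 1% and 1.05 with CSE 10% (standard error 0.15; adjusted p = 4.9e-06 and 1.1e-05). For CYP2S1 it was -1.34 with CSE 5% (standard error 0.20; adjusted p = 3.8e-05). For CYP39A1 and CYP4V2 it was 1.06 and 1.23 with CSE 10% (standard error 0.18; adjusted p = 7.2e-05 and 1.2e-05). In the control arrays CYP3A5, CYP4F12 and CYP4V2 fell by 1.80, 1.19 and 0.75 from 1 to 5 weeks and CYP2S1 rose by 0.64, while CYP39A1 differed by 0.03, which did not pass. The change of the control from 1 to 5 weeks enters each of these differences by subtraction. For CYP3A5 and CYP4F12 the control falls of 1.80 and 1.19 were close in size to the differences. What lay behind the control changes was not tested.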

How the results depend on the processing

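The changes of CYP3A5, CYP4V2, CYP4F12, CYP39A1 and CYP2S1 past the study's threshold kept direction and an adjusted p under 0.05 under every alternative that gave them a value; CYP39A1 was not among the 60% brightest clusters. Leaving out single arrays moved CYP3A5 with CSE 5% at 5 weeks between 1.97 and 2.38.

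Counts of members depended more on the processing. In the order CSE 1%, 5% and 10%, the 5-week falls (18, 22 and 21) numbered 5, 8 and 6 after cyclic loess, 7, 10 and 11 among the 60% brightest clusters, 4, 12 and 12 in separate fits, and 2, 7 and 8 against the controls of weeks 1 and 3; centring on housekeeping genes gave 11 with CSE 10%. The 5-week rises with CSE 1% (11) were 5 in a separate fit and 6 against the controls of weeks 1 and 3. Calls past the study's threshold (15) were 7 with these controls in the week-5 comparisons. At 3 weeks, falls with CSE 1% (2) were 1 after loess, 0 after centring and 0 in a separate fit; falls with CSE 5% (3) were 1 after centring; with CSE 10% rises (9) were 19 after centring and falls (0) were 3 after loess and 1 among the brightest. At 1 week, falls with CSE 1% (2) were 4 after centring, 0 among the brightest and 0 in a separate fit, and rises with CSE 5% (2) and CSE 10% (4) were 1 each among the brightest and in separate fits. Calls between control weeks (54) were 35 after loess and 30 among the brightest. The brightest clusters hold fewer members and separate fits fewer arrays by construction; the cause of the other moves was not tested. Loess moved the median of all clusters by 0.12, 0.14 and 0.14 at 5 weeks, and centring by 0.13, 0.15 and 0.18 at 3 weeks. After loess the small 5-week falls of CYP4B1 and CYP4F8 with CSE 1%, CYP17A1 with CSE 5% and CYP4F8 with CSE 10% were rises that did not pass.

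Leaving out single arrays gave 1 to 2 falls with CSE 1% at 1 week (1 without control replicate 2 or 3, or exposed replicate 1 or 3), 0 to 2 rises with CSE 5% at 1 week (0 without control replicate 3, and 1 without control replicate 1 or any exposed array), 0 to 3 falls there (3 without control replicate 1), and 2 to 4 rises with CSE 10% at 1 week (2 without control replicate 3 or any exposed array). At 3 weeks it gave 0 to 2 falls with CSE 1% (0 without control replicate 1 or 2 or exposed replicate 2, and 1 without exposed replicate 1 or 3) and 0 to 1 with CSE 10% (1 without control replicate 1 or exposed replicate 2 or 3). At 5 weeks it gave 11 to 21 falls with CSE 1% (11 without control replicate 1).

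With the replicate number as a block, falls with CSE 1% at 3 weeks (2) were 1; the block moved no other count by over 1.5 times and ended no call of the 5 genes above. The number of arrays and, for the 27 dim members, the weak signal limit the precision.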

Other observations

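Thromboxane synthase, encoded by TBXAS1, is a P450 enzyme by structure whose symbol does not start with CYP. TBXAS1 rose with CSE 5% by 0.80, 1.39 and 1.68 at 1, 3 and 5 weeks and with CSE 10% by 0.55, 0.93 and 1.18 (standard error 0.13; adjusted p from 4.4e-11 to 0.003). With CSE 1% it rose by 1.02 and 1.11 at 3 and 5 weeks, and its log2 change of 0.25 at 1 week did not pass (adjusted p = 0.31). PTGIS, the prostacyclin synthase of the same superfamily, had a log2 change of -0.39 with CSE 5% at 5 weeks (standard error 0.13), which passed, but of -0.09 against the controls of weeks 1 and 3, which did not (adjusted p = 0.014 and 0.6). CYP51A1, of cholesterol synthesis, fell with CSE 5% by 0.83 at 1 week and 0.77 at 3 weeks and with CSE 10% by 1.02 and 0.85 (standard error 0.12; adjusted p from 2.9e-07 to 2.4e-05), and no change passed at 5 weeks; against the controls of weeks 1 and 3 it fell there by 0.47, 0.56 and 0.77 with CSE 1%, 5% and 10% (adjusted p = 0.0021, 0.00016 and 1.8e-06).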
